A study of Mus musculus with 117 samples.

Results

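Hepatocellular carcinomas that arose in mice were compared with normal cells sorted from mouse liver. The comparison took all 13 samples whose source was given as hepatocellular carcinoma and all 11 samples of sorted liver cells, which made 24 of the 117 samples of the series. The sorted cells fell into 4 samples labelled positive and 7 labelled negative for Prom1, a pentaspan membrane protein also known as CD133. The series set tumours of mice with a conditional mutation involving Prom1 against normal cells of several organs on a C57BL/6 background. Tumours were pieces of tissue frozen whole after death. The normal cells came from dissociated tissue and were separated with magnetic beads carrying an antibody to Prom1. The labels gave no genotype, driver allele, age or sex for the liver samples, and none of them said whether the samples of a group were separate animals. If some were not, the p-values measure in part a technical spread. Tumours are numbered 1 to 13 in the order of deposit, and sorted samples carry the numbers of their titles, which were 2 to 5 for the positive and 1 to 7 for the negative group.

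Hepatocytes make most plasma proteins, the bile acids and the enzymes that clear drugs and steroids, and these tasks are divided along the lobule, with Wnt signals keeping the pericentral programme active. Liver is also among the organs in which males and females differ most in gene expression, through the pattern of growth hormone release. Sinusoidal endothelial cells and Kupffer cells, the resident macrophages, line its capillaries. Hepatocellular carcinomas commonly switch on fetal liver genes, and activation of beta-catenin, of NRF2 (the regulator of antioxidant genes) and of the IGF2 locus are recurrent events in them. Prom1 marks bile duct and progenitor cells in liver and has been used as a marker of tumour-initiating cells.

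Each value below is a log2 signal of the array's probe set for that gene, and each difference is the tumour mean minus the mean of the 2 sorted group means, so that a difference of 1 is a doubling of signal. Differences carry a standard error (SE) from limma, and a gene was called where limma's adjusted p was under 0.05 across all 14663 genes tested. Genes said to have risen or fallen are called ones. Of 538 entries of the gene lists used below, 461 were measured and 457 tested. Counts for each list are to be read beside all genes tested, of which 29.2% rose and 18% fell. The mean array median was 3.71. Signals near it change little when transcripts do, so differences for genes that are that dim in either group are compressed. Whole tumour tissue was set against dissociated and sorted cells, so the state of the tissue, its handling and its mixture of cells cannot be told apart by the design. All sorted liver samples had low Xist and high Eif2s3y, while 8 tumours had the reverse. Sex was not labelled and cannot be told apart from the tumour difference either, above all for sex-biased genes.

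The arrays themselves differed between the groups. The upper quartile of all signals was 6.353 ± 0.050 (SD, n = 13) in the tumours, 5.994 ± 0.028 (SD, n = 4) in the positive and 6.231 ± 0.133 (SD, n = 7) in the negative samples. The log2 ratio of the 3' to the 5' Gapdh control, which rises as RNA is degraded or amplified, was 0.359 ± 0.121, 1.141 ± 0.042 and 0.603 ± 0.206 in the same order. The same ratio of the Actb control was 0.907 ± 0.215, 1.541 ± 0.185 and 0.605 ± 0.13. Both ratios were highest in the positive samples. The tumours lay below the negative samples by Gapdh and above them by Actb. No pair of liver arrays correlated above 0.9909. Tumours 1 and 8 carried transcripts of lung epithelium. Sftpc, which encodes surfactant protein C of alveolar type II cells, read 12.65 in tumour 1 and 11.50 in tumour 8 against 2.65 to 4.45 in the other 11 tumours and 2.73 to 3.52 in the sorted liver cells. Scgb1a1, made by airway club cells, read 10.37 and 8.84 there against at most 3.01 in the other tumours. Ager, of alveolar type I cells, read 10.55 and 9.27 against at most 5.61. Sftpd, another surfactant protein gene, parted them less clearly. It read 10.22 and 8.57 against 3.27 to 7.91 in the other 11 tumours and at most 4.27 in the sorted liver cells. Without these 2 tumours 6 calls among the genes named below were lost, those of Sftpc (difference 0.22), Meg3 (1.26), Upk3a (0.84), Igf1 (-0.95), Nr1i3 (-0.76) and Cyp2e1 (-1.29), and that of Sult3a1 (1.05) was gained.

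The sorted samples were mixtures as well. Albumin (Alb), the main plasma protein of hepatocytes, read 13.44 to 13.76 in the positive and 13.31 to 13.75 in the negative samples, so both held abundant hepatocyte RNA. Clec4g, a lectin of sinusoidal endothelium, read 9.81 to 13.08 in the positive and 12.17 to 12.96 in the negative samples. Cd3g, a subunit of the T cell receptor complex, read 3.02 to 3.97 in the positive and 6.99 to 9.29 in the negative samples. Prom1 itself did not part them, with 2.85, 2.56, 3.12 and 4.14 in the positive samples and 2.53 to 3.41 in the negative ones. For this reason the groups are named by their labels only.

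Over all genes, 6921 of 14663 were called, or 47.2%. Of these, 4285 (29.2%) were higher and 2636 (18%) lower in the tumours, and the median difference of all genes was 0.072. Against both sorted groups taken separately, 2207 genes (15.1%) were higher and 844 (5.76%) lower. Another 206 genes were called in opposite directions against the 2 sorted groups. The share of calls that were higher moved with the scaling. It was 61.9% as deposited, 52.2% when quantile normalization was repeated, and 47.9% when the upper quartile of each array entered the fit. Calls with a difference of at least 1 numbered 1610 higher and 828 lower. In 257 genes (1.75%) all 13 tumours lay above all 11 sorted samples, and in 48 genes (0.327%) all lay below.

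Among the genes without overlap, the acute phase protein Lcn2 had the largest rise. Lipocalin 2 binds bacterial siderophores and is made by stressed hepatocytes and neutrophils. Its signal was 10.48 at the lowest, 12.86 at the median and 13.36 at the highest of the tumours. The positive samples read 5.17, 7.19, 3.90 and 3.96, and the negative samples 4.22 to 7.49. The difference was 7.28 (SE 0.42, limma adjusted p = 3.09e-28). Sult2a2, a sulfotransferase for hydroxysteroids, rose by 6.65 (SE 0.41). It read 2.33 to 2.61 in all sorted samples and 6.77 to 11.77 in 12 tumours, while tumour 5 was at 2.79. Rdh9, of the retinol dehydrogenase family, rose by 4.77 (SE 0.44). Its tumours spanned 9.08 to 12.24 and its sorted samples 3.65 to 8.02.

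The other leading rises without overlap came from several classes. Prss8 (prostasin, a membrane serine protease) rose by 3.92 (SE 0.33) and Ppl (periplakin, which links desmosomes to filaments) by 3.73 (SE 0.24). Egln3, an oxygen sensor that marks HIF for destruction and is itself induced by HIF, rose by 3.85 (SE 0.39). Elovl7, a fatty acid elongase, rose by 3.56, and Ajuba, a LIM adaptor of the Hippo pathway, by 3.53. Receptors and ligands included Tnfrsf12a, the TWEAK receptor, at 3.52 and Btc, the EGF receptor ligand betacellulin, at 3.21. The pantetheinase Vnn1 rose by 3.33, Lratd2 by 3.22, the interferon-inducible Ifi27l2b by 3.21 and the transmembrane oxidoreductase Cyb561 by 3.06. The remaining gene of this set, Gt(ROSA)26Sor, is described with the other organs.

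Prom1, which the conditional mutation involved in a way the labels do not give, was high in 12 of the tumours. It read 8.34, 8.65, 8.62, 5.57, 6.44, 9.39, 10.23, 9.38, 2.79, 8.41, 9.16, 8.13 and 8.80 in tumours 1 to 13. Tumour 9 alone lay within the range of the sorted liver cells. The difference was 4.94 (SE 0.70, limma adjusted p = 5.55e-09), and 12 of 13 tumours lay above all sorted samples.

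**Figure D1:**
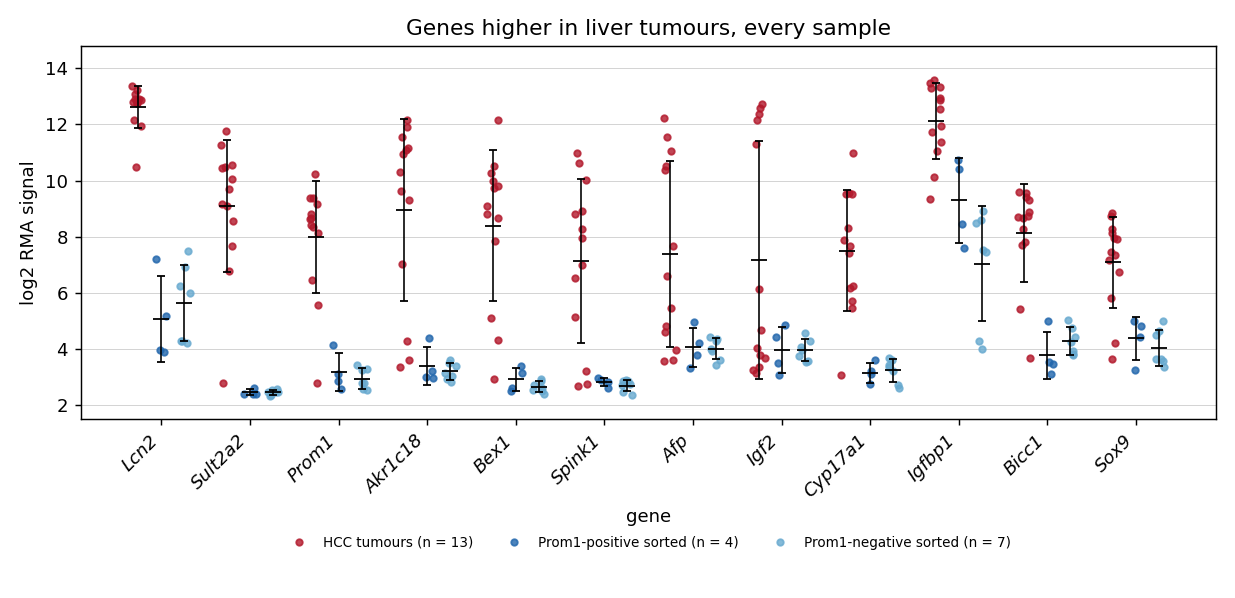
Log2 signals of genes higher in liver tumours, with a point for every sample and bars for mean and SD in the tumours (n = 13), the Prom1-positive (n = 4) and the Prom1-negative sorted samples (n = 7). Lcn2 kept all tumours at 10.48 or more and all sorted samples at 7.49 or less, while Afp and Igf2 spread from the level of sorted cells up to 12.24 and 12.72.

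Fetal and tumour marker genes of liver had the highest median difference of the lists described here. The list was written with earlier results of these data known, so its rank and counts are a description and not a test. Of 22 genes listed, 17 were measured and 15 passed the filter on dim genes. Of these 15, 13 rose, 8 of them against both sorted groups taken separately, and none fell, beside 29.2% of all genes that rose, and their median difference was 3.21 against 0.072 for all genes. Akr1c18, a hydroxysteroid dehydrogenase that inactivates progesterone, rose by 5.66 (SE 0.63) and lay above all sorted samples in 10 tumours. Bex1, a small adaptor protein first found in brain, rose by 5.62 (SE 0.63), with tumours from 2.91 to 12.15 and sorted samples from 2.39 to 3.38. Spink1, a trypsin inhibitor of pancreatic acini, rose by 4.38 (SE 0.77) and reached 10.97 in tumour 9, the tumour in which Prom1 was lowest. Ly6d rose by 3.94, Tff3, a mucosal trefoil peptide, by 3.39, and Cd24a, a mucin-like surface protein of progenitor cells, by 2.18. The rise of Cd24a was called against the positive samples (3.64) and not against the negative ones (0.71).

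Alpha-fetoprotein and Igf2 divided the tumours differently. Afp, the albumin-like carrier of fetal plasma, read 10.38 to 12.24 in tumours 1, 2, 3, 5 and 13 and 3.55 to 7.68 in the other 8. Igf2, the fetal growth factor, read 11.31 to 12.72 in tumours 1, 3, 6, 7 and 8, 6.13 in tumour 2 and 3.15 to 4.67 in the other 7. The sorted samples read 3.30 to 4.95 for Afp and 3.05 to 4.86 for Igf2. Tumours 1 and 3 were thus high in both, tumours 6, 7 and 8 in Igf2 only. The mean differences were 3.36 (SE 0.63) for Afp and 3.21 (SE 0.70) for Igf2. Meg3, a maternally expressed noncoding RNA of the Dlk1 locus, ranged from 3.51 to 12.12 in the tumours, with a difference of 1.81 (SE 0.77, limma adjusted p = 0.0433). That call was lost when any of tumours 1, 2, 3, 6, 7, 8 or 12, of negative samples 1, 4 or 7, or of positive samples 2 or 5 was left out, with differences from 1.31 to 1.80.

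Plasma protein genes did not move as a group. Of 18 members tested, limma called 0 in either direction, beside 47.2% of all genes. Their median difference was 0.31. At an unadjusted p under 0.05 limma called 1 higher and 0 lower, and the SEs of 0.30 to 0.66 leave room for moderate differences. Alb read 13.19 to 14.13 in the tumours and 13.31 to 13.76 in the sorted samples, a difference of 0.15 (95% interval -1.0 to 1.31). These signals lie near the top of the scale, which ended at 14.2, where arrays approach saturation. Transcription factors and nuclear receptors of hepatocytes shifted more, with 7 of 14 higher and 1 lower and a median difference of 0.81. Prox1, a homeobox factor of the liver bud, rose by 2.37 (SE 0.30), Foxa3 by 1.76, the xenobiotic receptor gene Nr1i2 by 1.49 and Nr5a2, a regulator of bile acid genes, by 1.41. Nr1i3, which encodes the receptor CAR, fell by 0.98 (SE 0.34), a call lost without tumour 7 (-0.72) or positive sample 5 (-0.74) and against the negative samples alone (-0.24).

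Mup3 and Hsd3b5 had the largest falls of the named genes without overlap. Mup3, a major urinary protein that carries pheromones, had a difference of -8.50 (SE 0.61, limma adjusted p = 2.47e-22). It read 13.42, 13.39, 13.61 and 13.51 in the positive and 12.75 to 13.48 in the negative samples. In 10 tumours it read 2.56 to 3.37, while tumours 4, 5 and 12 kept 12.39, 10.93 and 9.61. Hsd3b5, a steroid reductase of male mouse liver, had a difference of -7.28 (SE 0.18, limma adjusted p = 1.21e-60). It read 9.5, 10.91, 10.82 and 10.49 in the positive samples, 7.11 to 10.60 in the negative ones and 2.44 to 2.83 in 12 tumours. Tumour 5 read 4.90.

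All 6 tested genes known to be higher in male liver fell, with a median difference of -3.69, beside 18% of all genes that fell. Besides Hsd3b5 these were Elovl3, a fatty acid elongase, at -5.92 (SE 0.40), the lauric acid hydroxylase Cyp4a12a at -3.91 (SE 0.70), the complement component C6 at -3.48, Moxd1 at -2.89 and the peroxisomal Nudt7 at -2.23. Moxd1 read 9.20 to 10.98 in 4 sorted samples and 2.46 to 3.19 in the other 7, level with the tumours. Of 6 genes tested that are known to be higher in female liver, 5 rose, with a median difference of 1.37. Cyp3a41a rose by 2.86 (SE 0.52), Hao2, a peroxisomal hydroxyacid oxidase, by 2.14 and Cyp2b9 by 1.51. The sixth, Sult3a1, read 10.80 in tumour 4, and its difference of 0.86 passed the threshold only when tumour 2, 5 or 11, or tumours 1 and 8 together, were left out, or when quantile normalization was repeated.

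Sex chromosome transcripts differed between tumours as well. Xist, the noncoding RNA that coats the inactive X chromosome, read 10.58 to 11.34 in tumours 1, 2, 3, 4, 7, 9, 10 and 13, 3.50 to 4.19 in the other 5 and 2.80 to 5.22 in all sorted samples. Eif2s3y, a translation factor gene on the Y chromosome, read 2.10 to 2.79 in those 8 tumours, 5.02 to 8.14 in the other 5 and 6.73 to 8.78 in the sorted samples. Hsd3b5 was low on both sides of this divide, at 2.47 to 2.69 in the 8 tumours and 2.44 to 4.90 in the 5. Slco1a1, an organic anion transporter also higher in male liver, likewise read 2.88 to 9.0 in the 8 and 2.89 to 7.55 in the 5, against 7.44 to 11.22 in sorted cells. Some other male-biased genes were lower in the 8 than in the 5 by their medians, with ranges that overlapped. The medians were 4.83 and 9.11 for Cyp4a12a, 6.46 and 7.87 for C6 and 9.11 and 10.16 for Nudt7. Those of Elovl3 (3.11 and 3.36) and Moxd1 (2.73 and 2.63) differed little. Female-biased medians were higher in the 8 for Cyp3a41a (6.63 and 6.08) and Cyp2b9 (4.96 and 3.43). So were those of Cux2 (4.99 and 4.02) and Sult3a1 (2.53 and 2.37). They were lower in the 8 for Hao2 (3.9 and 4.49) and Cyp3a44 (3.7 and 4.92). These differences between tumours were not tested. Without the 8 tumours, all 6 male-biased genes were still called lower and 3 of the 6 female-biased genes higher. Cux2, a repressor in female liver, then had a difference of 0.25 and Cyp2b9 one of 0.32, both without a call.

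Bile acid genes fell in part. Of 13 tested, 6 fell and 2 rose, with a median difference of -0.73. The falls were led by Slco1a1 at -5.57 (SE 0.35, limma adjusted p = 4.94e-26) and by Cyp8b1, the sterol 12-hydroxylase that makes cholic acid, at -4.51 (SE 0.34). Cyp8b1 read 2.65 to 3.71 in 11 tumours, 8.07 in tumour 4 and 6.23 in tumour 5, against 6.95, 9.93, 9.25 and 8.94 in the positive and 4.06 to 9.24 in the negative samples. Cyp7b1, of the alternative synthesis pathway, fell by 2.95 (SE 0.40). The basolateral uptake carrier Slc10a1 fell by 1.04, a call lost against the negative samples alone (-0.63) and without the 8 tumours with high Xist (-0.45), while the canalicular exporter Abcc2 rose by 1.90 and the phospholipid floppase Abcb4 by 1.03, a call lost without positive sample 2 (0.65) and against the positive samples alone (0.45). Among cytochrome P450 and conjugation genes, 6 of 18 fell and 3 rose. The naphthalene hydroxylase Cyp2f2 fell by 2.95 (SE 0.77) with tumours from 2.91 to 12.19, and the glucuronosyltransferase Ugt2b1 by 2.78 (SE 0.45). Cyp2a5, the coumarin hydroxylase, rose by 2.50 (SE 0.69), a call lost without the arrays with an upper quartile under 6 (1.47, limma adjusted p = 0.131). Of 15 urea cycle and amino acid genes, 3 fell, near the 18% of all genes that fell. Hal, which removes ammonia from histidine, was among them at -2.55 (SE 0.69).

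**Figure D2:**
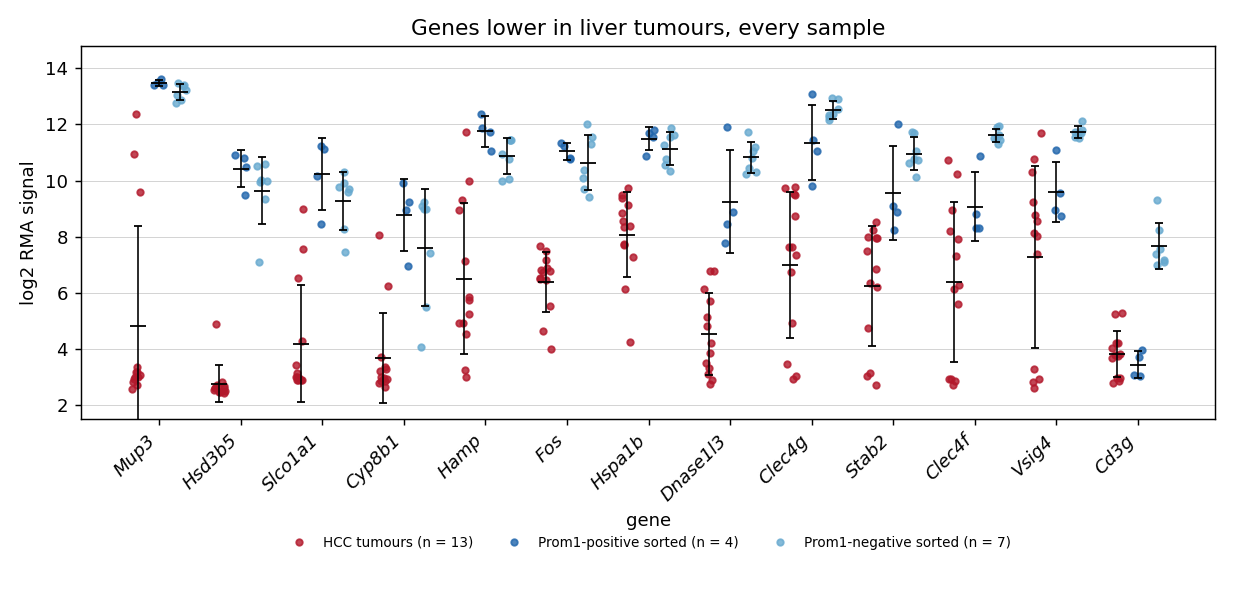
Log2 signals of genes lower in liver tumours, with a point for every sample and bars for mean and SD in the 13 tumours, the 4 Prom1-positive and the 7 Prom1-negative sorted samples. Mup3 stayed at 9.61 or more in tumours 4, 5 and 12 and read 3.37 or less in the other 10, and Cd3g was at the level of the tumours in the Prom1-positive samples and above them in the Prom1-negative ones.

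The periportal and pericentral lists each held more genes that rose than fell, although some zonated genes of other lists fell. Cyp17a1, which makes androgen precursors, rose by 4.31 (SE 0.35) and led the periportal list, in which 6 of 9 rose and 2 fell. It read 2.62 to 3.68 in sorted cells and 5.46 to 9.56 in 11 tumours, with tumour 5 at 3.07 and tumour 8 the highest. Of 15 Wnt target and pericentral genes, 8 rose and 1 fell, with a median difference of 0.88. Against both sorted groups taken separately 3 genes of each list rose. Cyp2f2 and Hal, described with other lists, are periportal as well and fell. Cyp2e1, a pericentral ethanol oxidase, read 3.02 in tumour 1, 7.74 to 12.77 in the other tumours and 10.51 to 12.69 in sorted cells. Its difference of -1.74 (SE 0.71, limma adjusted p = 0.0359) lost its call without tumour 1 (-1.13) and was -0.09 without the 8 tumours with high Xist. Rhbg, an ammonium transporter of pericentral hepatocytes, rose by 2.12 (SE 0.42), the tight junction gene Cldn2 by 2.22 (SE 0.61, not called against the positive samples alone) and Znrf3, a ubiquitin ligase that removes Wnt receptors, by 1.92 (SE 0.34). Notum, a secreted enzyme that inactivates Wnt proteins, fell by 1.30 (SE 0.30), and this was called against the positive samples (-1.97) and not against the negative ones (-0.63). The count of 8 dropped to 5 when tumour 6, 7, 8 or 12, negative sample 1 or 2, or positive sample 2 or 3 was left out. It was 3 against the positive samples alone.

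Within the list 4 tumours stood apart, which were singled out after their values were seen. Axin2, a negative feedback target of beta-catenin, read 7.46, 7.23, 7.49 and 7.84 in tumours 6, 7, 8 and 12, 3.58 to 4.94 in the other 9 and 4.06 to 5.36 in sorted cells. Lgr5, a receptor for R-spondins, read 9.0, 8.53, 8.42 and 7.84 in the same 4 tumours, and its sorted samples lay between 2.86 and 4.87. Sp5, a direct target of beta-catenin, read 8.24, 7.73, 8.56 and 7.64 there and 3.06 to 4.34 in the other 9. Rhbg read 8.79, 8.80, 9.81 and 9.96 there and 3.14 to 6.58 in the other 9, of which tumours 4, 5, 9 and 11 also lay above all sorted samples. Nkd1, a feedback inhibitor of the pathway, read 6.25, 6.37, 7.80 and 8.02, and 2 tumours lay above all sorted samples. As means over 13 tumours, Axin2 (0.59, SE 0.36) and Lgr5 (0.84, SE 0.46) were not called. Ctnnb1, the gene of beta-catenin, differed by 0.31 (SE 0.09), and the arrays do not show whether it was mutated. Igf2 was high in tumours 6, 7 and 8 and at 4.04 in tumour 12, and Afp was 3.55, 4.61, 3.95 and 7.68 in these 4.

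Cancer genes and brakes of the cell cycle moved in both directions. Of 21 tested, 7 rose and 2 fell, beside 29.2% of all genes that rose and 18% that fell. The share that rose was thus near that of all genes. Inhibitors of cyclin-dependent kinases led, with Cdkn2b at 2.33 (SE 0.42), Cdkn2c at 1.71 (SE 0.29) and Cdkn1a, a target of p53, at 1.67 (SE 0.32). Without the 8 tumours with high Xist, Cdkn2b was at 1.12 without a call. Met, the receptor for hepatocyte growth factor, rose by 1.46 (SE 0.37), and was not called against the positive samples alone (1.11). The receptor genes Egfr and Erbb2 fell by 1.36 (SE 0.37) and 0.90 (SE 0.24), the first called only against the positive and the second only against the negative samples. Myc differed by 0.36 (SE 0.20) without a call. In the insulin-like growth factor list, 2 of 10 rose and 3 fell. Igfbp3, the main carrier of the factors in plasma, rose by 3.46 (SE 0.46), and Igf1, which the liver secretes under growth hormone, fell by 1.16 (SE 0.42), a call lost without tumour 1 (-0.93), against each sorted group alone (-1.29 and -1.04) and in a fit of the 24 liver samples only. Outside that list Igfbp1, the insulin-repressed binding protein, rose by 3.96 (SE 0.55) and lay above all sorted samples in 11 tumours.

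Proliferation genes were higher than in the positive samples and mostly level with the negative ones. Of 24 cell cycle genes, 17 rose and none fell against the mean of both groups, with a median difference of 0.92. Against the positive samples 17 rose, with a median of 1.29, and against the negative samples 5 rose and 2 fell, with a median of 0.39. The count fell to 6 with the upper quartile of each array in the fit, and to 8 without the 8 tumours with high Xist. Rrm2, the ribonucleotide reductase subunit made in S phase, rose by 2.53 (SE 0.39, limma adjusted p = 5.66e-08). It read 4.57 at the lowest, 6.53 at the median and 7.94 at the highest of the tumours, 3.81, 3.69, 3.59 and 3.32 in the positive and 4.06 to 5.76 in the negative samples. Mcm6, of the replicative helicase, rose by 2.16 (SE 0.27) and was called against both groups. Mki67, the proliferation antigen, read 4.78 to 8.01 in the tumours, 3.02 to 4.14 in the positive and 5.09 to 7.49 in the negative samples, and its difference was 2.69 against the former and -0.02 against the latter. Cdk1, the kinase that starts mitosis, showed 1.26 (SE 0.40), with 2.31 and 0.21 against the 2 groups.

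Genes of the G2 and M phases share promoter elements, the CCAAT box bound by NF-Y and the cell cycle homology region TTTGAA. Promoters of members that rose were therefore read from RefSeq (GRCm38.p6), as windows around the start of each gene. Of the 17 genes, 13 had a promoter in the table. CCAAT was found on either strand in 10 of them and in 37.4% of all 32851 promoters, TTTGAA in 7 and in 17.9%, and the E2F element GGCGGGAA in 0 and in 2.19%. A gene counted if any of its promoters matched, while the shares are over single promoters. These are matches of letters and not tests of binding. The 100 bases before the start of 4 mitotic genes are shown because their signals moved together and they hold both elements or repeated ones. They are written 5′ to 3′ on the gene's strand, and capitals mark CCAAT or ATTGG and TTTGAA or TTCAAA. Cdk1 lies at chr10:69352913-69353012, Cdc20, an activator of the anaphase complex, at chr4:118437344-118437443, Top2a, the topoisomerase that untangles chromosomes, at chr11:99024190-99024289, and Ccnb2, the mitotic cyclin B2, at chr9:70421555-70421654, all on the minus strand.
Cdk1: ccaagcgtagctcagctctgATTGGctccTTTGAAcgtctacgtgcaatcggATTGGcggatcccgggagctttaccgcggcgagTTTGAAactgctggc
Cdc20: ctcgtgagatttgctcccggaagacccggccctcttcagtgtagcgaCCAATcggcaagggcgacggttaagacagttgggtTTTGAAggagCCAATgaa
Top2a: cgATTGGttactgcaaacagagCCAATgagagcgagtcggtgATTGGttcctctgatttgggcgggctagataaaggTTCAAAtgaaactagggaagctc
Ccnb2: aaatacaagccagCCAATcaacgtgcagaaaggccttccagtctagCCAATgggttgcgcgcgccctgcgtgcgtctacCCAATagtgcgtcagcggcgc

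The signals of these 4 genes moved together, which was part of the rule that picked them. Cdc20 differed by 1.27 (SE 0.34), Top2a by 1.25 (SE 0.36) and Ccnb2 by 1.32 (SE 0.39). Against the positive samples alone the differences were 1.80, 2.35 and 2.08, and against the negative samples 0.74, 0.15 and 0.55. This pattern was not particular to the elements. Birc5, a member that rose, holds neither in its 100 bases. Its means were 5.6 in the tumours, 3.22 in the positive and 5.11 in the negative samples.

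Most antioxidant genes driven by NRF2 rose. Of 13 tested, 10 rose and none fell against the mean of the sorted groups and 5 rose against both groups taken separately, with a median difference of 0.72, and the medians were 0.76 and 0.85 against the positive and the negative samples. Nqo1, a quinone reductase, rose by 2.97 (SE 0.48), with tumours from 5.17 to 10.12 and sorted samples from 3.82 to 6.83. Srxn1, which repairs peroxiredoxins, rose by 2.58 (SE 0.31), and 12 tumours lay above all sorted samples for each of these genes. Tumour 1 was the lowest for both. The glutathione transferase Gsta2 rose by 3.30 (SE 0.66), the glutathione peroxidase Gpx2 by 2.30 (SE 0.55) and the cystine carrier Slc7a11 by 2.07 (SE 0.55), the last with 6 tumours above all sorted samples and a median of 3.21. The antioxidant response element TGACNNNGC, searched on both strands after the data were seen, was present in the promoters of 4 of the 9 called members with a promoter in the table (Gclm, Pgd, Srxn1 and Txnrd1) and in 12.4% of all promoters. A member counted if any of its promoters matched, and Txnrd1 and Pgd had several, while the share is over single promoters. The 2 are therefore not like for like.

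Targets of YAP and genes of the Notch pathway were split. Of 10 YAP targets, 5 rose and 2 fell. Ajuba read 6.46 to 8.99 in the tumours and 2.88 to 5.50 in sorted cells. Ccn2, a matricellular growth factor, rose by 3.10 (SE 0.41), and Amotl2, which holds YAP at cell junctions, fell by 0.82 (SE 0.23), called against the negative samples only. Of 11 Notch genes, 5 rose and 3 fell. The ligand gene Jag1 rose by 1.15 (SE 0.35), although the mean of its probe sets gave 0.57 without a call, and the receptor gene Notch1 fell by 1.06 (SE 0.24), called against the negative samples only.

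Several lists of energy and lipid metabolism held more rises than falls. In glycolysis and the response to hypoxia, 9 of 15 genes rose and 1 fell, with a median of 0.63, made of 1.20 against the positive and 0.14 against the negative samples, and 6 rose against both. The triose phosphate isomerase gene Tpi1 read 10.54 to 11.61 in the tumours and 8.57 to 10.30 in sorted cells, a rise of 1.38 (SE 0.15), and Pgk1 rose by 1.08 (SE 0.16). Without the 8 tumours with high Xist, 3 of these genes were called higher. In cholesterol synthesis 8 of 12 rose, 4 of them against both groups, and 1 fell. Sqle, the squalene epoxidase, rose by 2.51 (SE 0.40) and Lss, which closes the sterol rings, by 1.90 (SE 0.30). Hmgcs1, at the entry of the pathway, had a difference of -2.67 against the positive and 0.16 against the negative samples. In fatty acid synthesis and lipid droplets 9 of 17 rose and none fell, led by the lipoprotein lipase gene Lpl at 2.02 (SE 0.38) and Pparg at 1.58 (SE 0.42). That count was 4 without tumour 4, 4 without positive sample 2, and 2 against both groups. In fatty acid oxidation 6 of 10 rose, with the fasting hormone Fgf21 at 2.46 (SE 0.23). In gluconeogenesis and sugar handling 2 of 8 rose, near the 29.2% of all genes that rose. Besides Igfbp1 this was Pcx, the pyruvate carboxylase, at 1.38 (SE 0.35).

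Most acute phase genes rose. Of 16 tested, 11 rose, 1 fell and 4 were not called, with a median of 1.64, and 6 rose against both sorted groups taken separately. After Lcn2 the largest rises were those of the orosomucoid Orm2 at 3.74 (SE 0.53), of Il1rn, which encodes the interleukin-1 receptor antagonist, at 2.47 (SE 0.41) and of Steap4, a metalloreductase, at 2.19 (SE 0.39). The gene that fell was Hamp, which encodes hepcidin, the hormone that closes the iron exporter. It read 11.04, 11.87, 12.39 and 11.72 in the positive samples, 9.97 to 11.46 in the negative ones and 3.0 to 11.72 in the tumours, a difference of -4.81 (SE 0.59, limma adjusted p = 4.2e-11). Tumour 4 alone stayed above the lowest positive sample, and 11 tumours lay below all sorted samples.

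Markers of bile duct cells rose in most tumours. Of 9 tested, 6 rose and none fell, with a median of 1.77 and a mean level of 3.16 to 7.35 in the tumours and 3.29 to 4.09 in the sorted samples. Bicc1, an RNA-binding protein of ducts and tubules, rose by 4.10 (SE 0.39) and read above all sorted samples in 12 tumours. Sox9, the transcription factor of ducts and progenitors, rose by 2.88 (SE 0.41), with tumours 4 and 12 at 3.65 and 4.20 and the other 11 from 5.80 to 8.83. Epcam rose by 1.77 (SE 0.41) and Krt23 by 1.94 (SE 0.48). Krt19, a keratin that defines mature ducts, read 3.14 to 7.44 in the tumours and 2.83 to 6.79 in sorted cells, and its difference of 0.67 was not called.

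Markers of sinusoidal endothelium fell against both sorted groups, 10 of 12 when each was taken separately. Of 12 markers of sinusoidal endothelium, 11 fell and none rose, with a median of -3.62 (-2.86 against the positive and -4.38 against the negative samples). Their mean level was 5.11 to 7.87 in the tumours, 7.74 to 11.74 in the positive and 10.55 to 11.60 in the negative samples. In whole tissue, fewer cells of a type and less RNA per cell cannot be told apart. Dnase1l3, a secreted nuclease, fell by 5.51 (SE 0.33, limma adjusted p = 3.64e-27). It read 11.91, 8.89, 7.76 and 8.45 in the positive samples, 10.24 to 11.72 in the negative and 2.73 to 6.76 in the tumours. Clec4g fell by 4.94 (SE 0.44), Wnt2, the Wnt ligand that these cells give to pericentral hepatocytes, by 4.72 (SE 0.40), Oit3 by 4.61, Ehd3 by 4.14 and the scavenger receptor Stab2 by 4.01. Tumours 1, 6 and 8 had the lowest Clec4g, at 2.91, 3.47 and 3.03. Of 12 markers shared by endothelium, 8 fell and 1 rose, with a median of -0.61 against the positive and -2.49 against the negative samples, and 4 fell against both. The angiopoietin receptor Tek fell by 3.24 (SE 0.40), and Cd34, a marker of capillaries outside sinusoids, rose by 1.37 (SE 0.33), called against the positive samples only. Other falls without overlap were the endothelial phosphatase Ptprb (-3.22), the collagen Col13a1 (-4.0), the water channel Aqp1 (-2.97), the transcriptional inhibitor Id3 (-3.01), the decoy receptor Il13ra2 (-3.32) and the sulfotransferase Sult5a1 (-4.04).

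Kupffer cell markers followed, with wider spread. Of 14 macrophage markers, 11 fell and 2 rose, and the median was -1.64, made of -0.33 against the positive and -2.95 against the negative samples. Against the positive samples alone 6 fell. The mean level of the list was 5.25 to 9.84 in the tumours, 6.92 to 9.74 in the positive and 9.40 to 10.24 in the negative samples. Clec4f, a lectin particular to Kupffer cells, fell by 3.97 (SE 0.45). It read 2.72 to 2.94 in tumours 1, 6, 7 and 8, 5.61 to 10.75 in the other 9, 8.31 to 10.87 in the positive and 11.29 to 11.96 in the negative samples. The phagocytic receptors Timd4 and Vsig4 fell by 3.51 (SE 0.42) and 3.39 (SE 0.68). Gpnmb, a protein of lipid-laden macrophages, rose by 1.91 (SE 0.44), and was not called against the positive samples alone (1.31). In monocytes and neutrophils 2 of 12 rose, among them Chil3, a chitinase-like lectin, at 4.04 (SE 0.66), with tumours from 3.06 to 11.75 and sorted samples from 3.01 to 7.03.

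Lymphocyte markers depended on the sorted group. Of 15 T and NK cell markers, 13 fell and none rose against the mean of both, with a median of -1.21. Against the positive samples 2 rose and none fell, and the median was -0.06, while against the negative samples 13 fell and it was -2.92. The mean level of the list was 3.44 to 4.99 in the tumours, 3.55 to 3.74 in the positive and 5.71 to 7.43 in the negative samples. Cd3g showed 0.37 against the positive and -3.87 against the negative samples. The chemokine Ccl5 showed 2.53 and -2.92, and Nkg7, a granule protein of killer cells, 1.26 and -3.69, all 4 called. B cell markers fell in 7 of 10 and those of dendritic cells and MHC class II in 7 of 10. Against the positive samples 2 B cell markers fell, none of the MHC class II list did and 1 of that list rose.

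Stromal markers were mixed. Of 17 stellate cell and fibroblast markers, 5 rose and 4 fell, near the shares of all genes (29.2% and 18%). Acta2, the smooth muscle actin of activated stellate cells, read 5.27 to 9.49 in the tumours and 3.40 to 5.59 in sorted cells and rose by 3.02 (SE 0.37). The collagen gene Col1a1 rose by 1.63 (SE 0.44), while Colec10, a collectin of quiescent stellate cells, fell by 1.75 (SE 0.33). In basement membrane and matrix 4 of 11 rose and 1 fell, beside the same shares. Of 8 erythroid and platelet markers 1 rose, and of 9 markers of neighbouring organs 3 fell. Cpa1, a pancreatic carboxypeptidase, was among the latter, with a difference of -1.54 (SE 0.43), 3.21 to 7.52 in the negative samples and at most 3.56 in the tumours.

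Immediate early genes, which respond within minutes to stress and dissociation, fell. Of 18 with heat shock genes, 13 fell and 2 rose. Their medians were -1.41 and -1.18 against the positive and the negative samples and -1.38 against the mean of both. Fos, a subunit of the AP-1 factor, read 4.0 at the lowest, 6.74 at the median and 7.68 at the highest of the tumours, 11.35, 10.79, 11.24 and 10.78 in the positive and 9.43 to 12.01 in the negative samples. The groups did not overlap, and the difference was -4.44 (SE 0.30, limma adjusted p = 9.03e-24). Its partner Jun fell by 3.04 (SE 0.26), the phosphatase gene Dusp1 by 2.34 (SE 0.25) and the chaperone gene Hspa1b by 3.25 (SE 0.39). Tumour tissue was frozen whole and the normal cells were dissociated and sorted. The part of that handling in these differences was not tested.

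**Figure D3:**
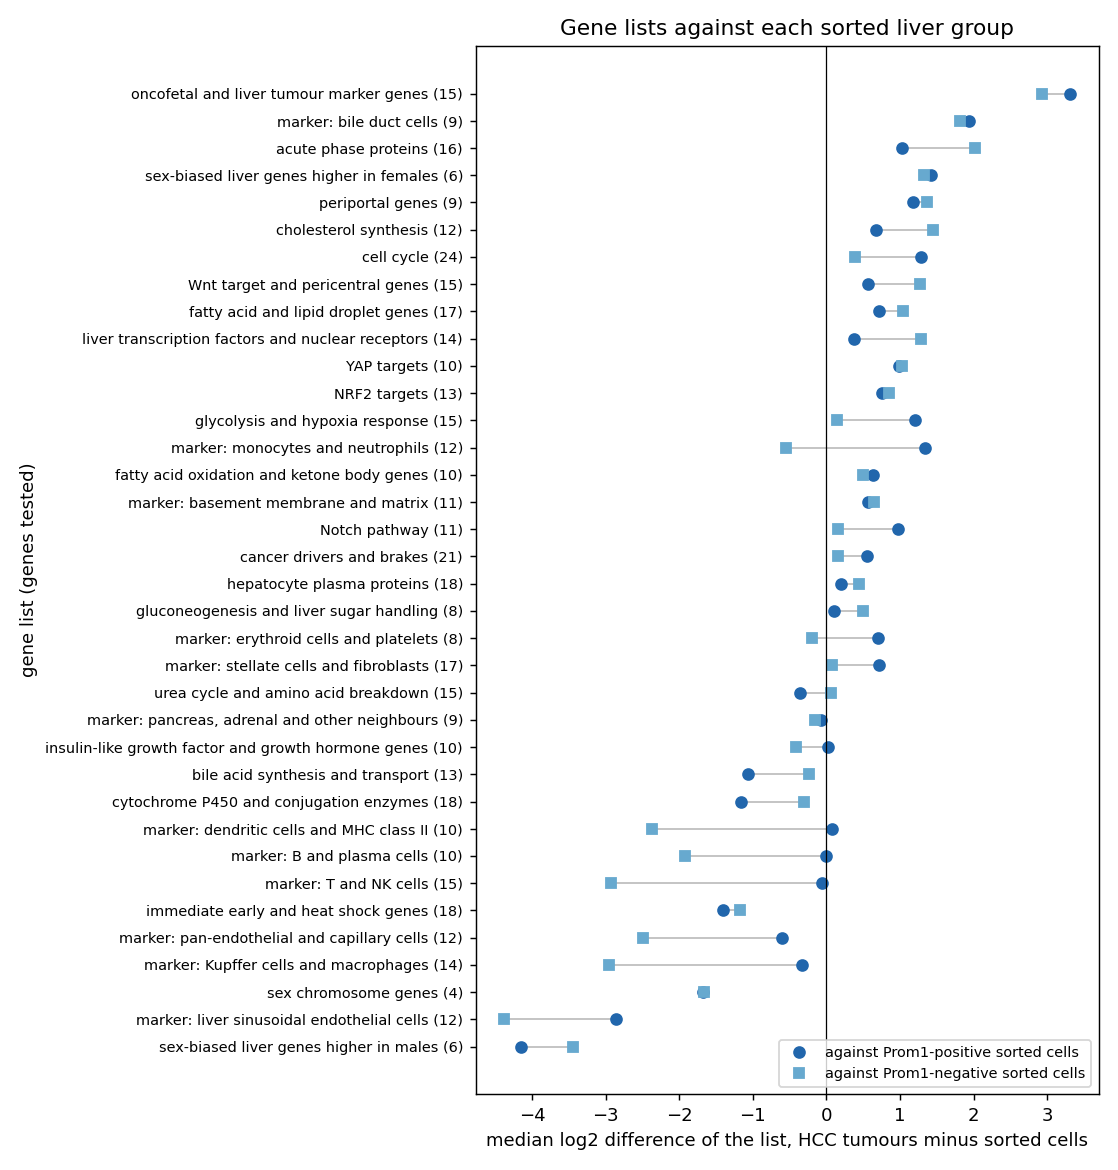
Median log2 difference of each gene list, tumours minus Prom1-positive and tumours minus Prom1-negative sorted samples, with the number of genes tested in brackets. Lists are ordered by their median against the mean of both sorted groups. By that order fetal and tumour marker genes were highest, at 3.31 against the positive and 2.93 against the negative samples. Male-biased liver genes were lowest, at -4.15 and -3.44.

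The tumours varied more among themselves in some genes than they differed from normal cells. The median SD over all genes was 0.411 in the tumours, 0.475 in the positive and 0.344 in the negative samples, and 516 genes (3.52%) had an SD above 1.5 among the tumours. The largest SDs were those of Igf2 (4.24), Ces3b, a carboxylesterase (3.85), Xist (3.64), Serpina12, the adipokine vaspin (3.61), Mup3 (3.56), Meg3 (3.53), Sftpc (3.38), the carbonic anhydrase Car3 (3.34), Afp (3.33) and the uroplakin Upk3a (3.31). Serpina12 did not differ on average (-0.79, limma adjusted p = 0.334). Upk3a, a protein of the bladder lining, read 11.93, 6.92 and 12.16 in tumours 6, 7 and 8. Its call was lost without tumour 6, 7 or 8 or positive sample 2 or 5, at differences of 0.74 to 1.25, and that of Sftpc without tumour 1 or tumour 8, at 0.91 and 1.01. Tumours 4 and 5 kept the most of the normal pattern in Mup3, Slco1a1 and Cyp8b1. Each tumour had 2338 to 3436 genes above and 1024 to 2438 below all sorted samples, with tumour 1 highest and tumour 5 lowest in both counts.

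**Figure D4:**
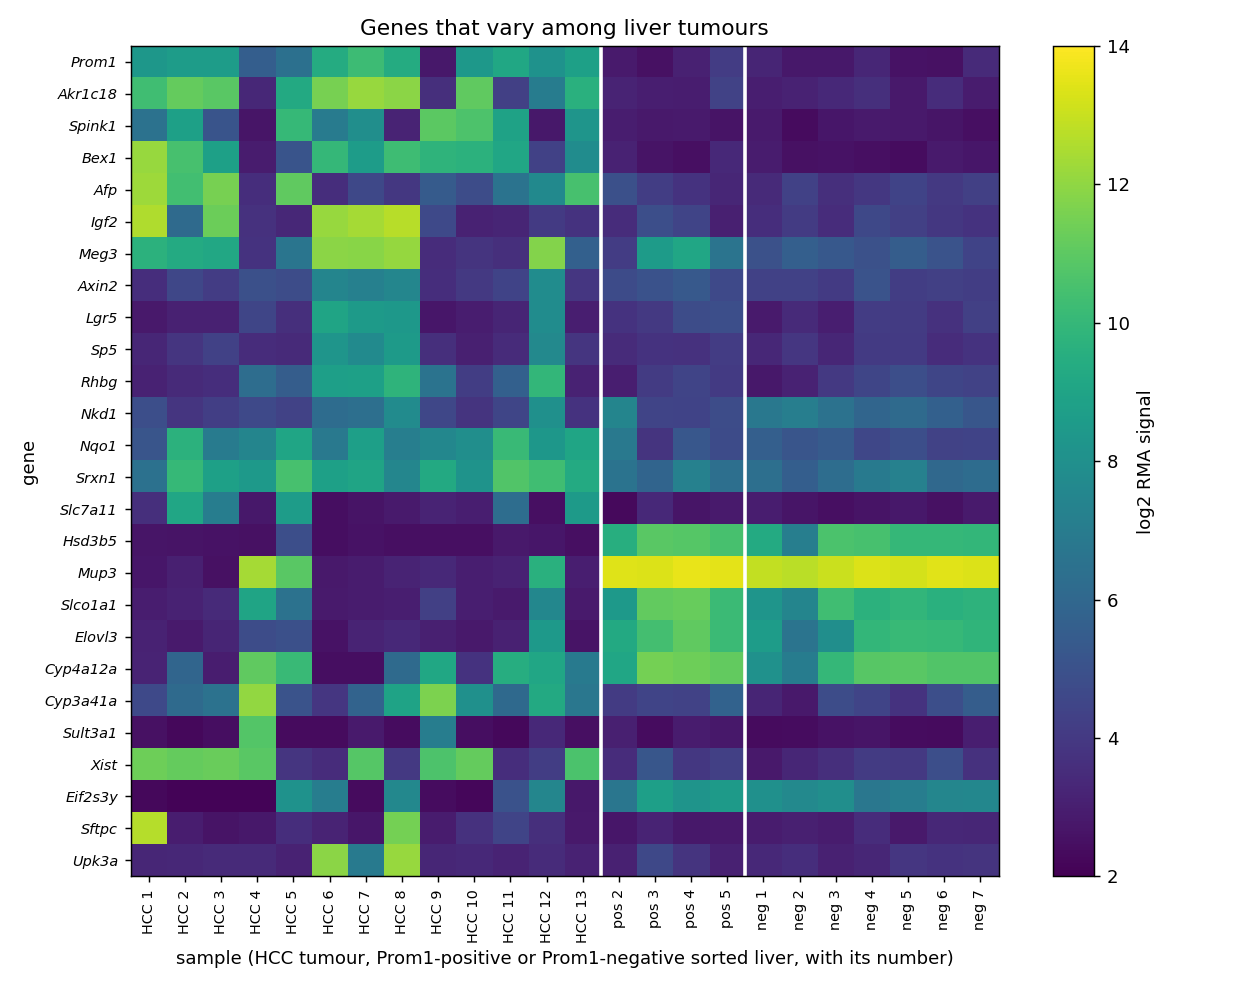
Log2 signals of selected genes in each of the 13 tumours and 11 sorted samples, with the colour scale in log2 units. Axin2, Lgr5 and Sp5 were high in tumours 6, 7, 8 and 12, Afp and Igf2 in sets that overlapped in tumours 1 and 3, and Xist in 8 tumours.

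Differences in liver were set against those of tumours and sorted cells in 4 other organs, prostate, lung, stomach and uterus, with the same contrast in each. The liver difference departed from the mean of the 4 in 5000 genes (34.1%), 2770 upward and 2230 downward. All organs enter the same fit, and liver values are used in each departure. Spink1 departed furthest upward, by 7.66 (SE 0.89). It was higher in liver tumours and had differences of -7.64 in prostate and -4.28 in uterus. Prom1 departed by 6.77 (SE 0.81, limma adjusted p = 4.3e-11), with -0.26 in prostate, -0.16 in lung, -3.19 in stomach and -3.70 in uterus. The estrogen sulfotransferase Sult1e1 departed by 7.01, Sult2a2 by 6.59, Akr1c18 by 5.59, the tetraspanin Tspan8 by 5.53, the chemokine Ccl2 by 5.02, the sulfotransferase Sult1d1 by 4.94, Itih5 by 4.75 and Xist by 4.61. For some of these genes the other organs made much of the departure. Ccl2 rose by 1.84 in liver and differed by -5.48 in prostate, -5.06 in lung, 2.03 in stomach and -4.23 in uterus. Itih5 rose by 3.47 in liver and differed by 3.68 in stomach, -2.59 in prostate, -3.38 in lung and -2.85 in uterus. Sult1e1 differed by -5.73 in prostate, and Sult1d1 by -3.14 in stomach and -3.5 in uterus. Xist differed by 2.93 in lung and -3.89 in stomach. Tspan8 rose by 6.22 in the liver comparison itself. Xist was high in 8 of the liver tumours only and low in all sorted liver samples.

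Among downward departures, Hsd3b5 departed by -7.14, the pseudogene Serpina4-ps1 by -6.94, Mup3 by -6.90, Elovl3 by -5.78, Ces3b by -5.77, Slco1a1 by -5.43, the sulfotransferase Sult2a8 by -5.37, Moxd1 by -4.94 (with differences of 2.46 in stomach and 4.35 in uterus), Dnase1l3 by -4.92 and Oit3 by -4.58. Hsd3b5 read at most 3.47 in tumours and sorted cells of the 4 other organs, so it could hardly fall there. Its departure restates its fall in liver. Elovl3, Slco1a1, Sult2a8 and Oit3 also differed little in those organs, by -0.45 to 0.23. Mup3 had a difference of -5.8 in stomach. Jun departed by -0.26 (limma adjusted p = 0.52), within its error. Gt(ROSA)26Sor, the transcript of the ROSA26 locus into which conditional alleles and reporters are commonly inserted, rose by 3.58 (SE 0.44) in liver and departed by 1.04 (limma adjusted p = 0.101), with 2.74 in prostate, 4.06 in lung, 2.63 in stomach and 0.73 in uterus. Sorted cells of uterus read 6.24 to 7.54, within the range of its values in liver tumours. Some sorted samples of other organs reached that range too, up to 8.04 in lung, 8.32 in stomach, 7.27 in intestine and 6.52 in prostate. Gt(ROSA)26Sor read 6.2 to 8.6 in the liver tumours, 2.62 to 5.41 in the positive and 2.70 to 5.30 in the negative liver samples.

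**Figure D5:**
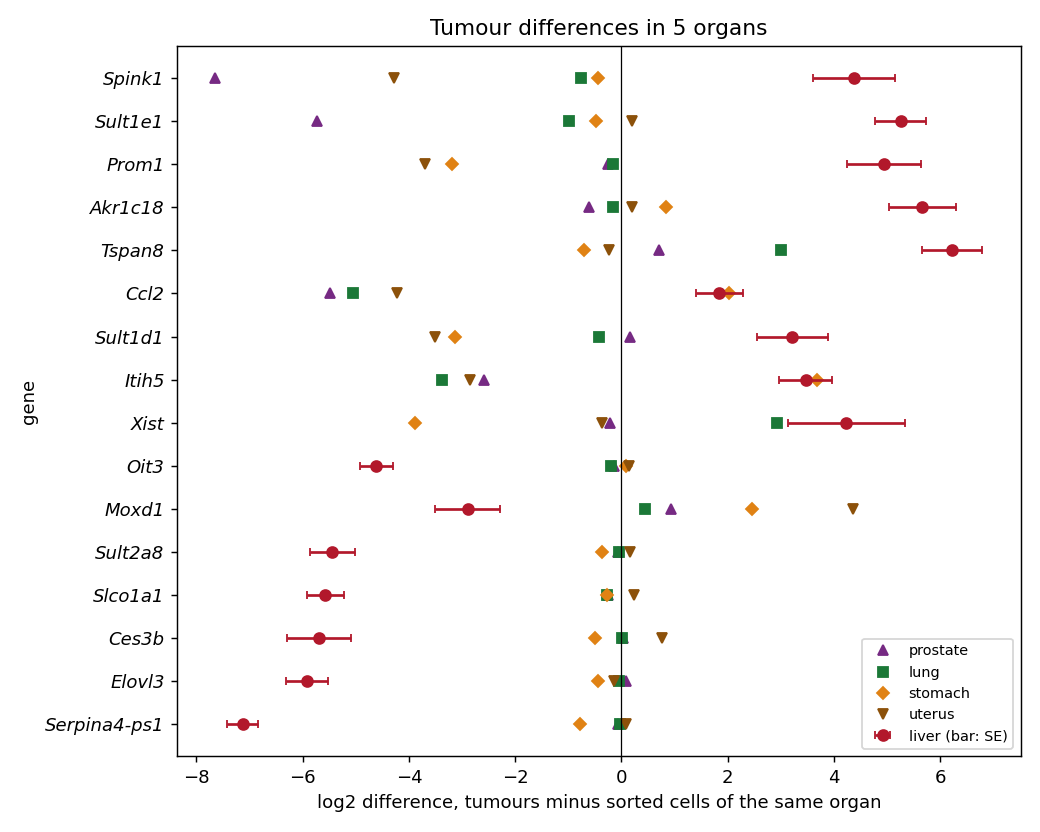
Log2 difference of tumours minus sorted cells of the same organ for the genes whose liver difference departed most from that of prostate, lung, stomach and uterus, with SE bars for liver. Prom1 stood at 4.94 in liver and between -3.70 and -0.16 in the others.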

How the data were processed

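Biotin-labelled RNA of 117 mouse samples was read on Affymetrix arrays, 1 per sample. The authors deposited log2 signals for probe sets, and the submitters' processing notes name RMA and Partek 6.6. RMA equalises the distribution of signals between arrays, so a shift common to most transcripts is removed, and it compresses differences of dim genes. Of 45141 probe sets, 28898 had 1 gene symbol, 551 had several and 15692 had none. The brightest probe set stood for each of 17097 genes, of which 16937 were matched by Entrez identifier to RefSeq (GRCm38.p6). Genes above the array median on at least 3 of all arrays were tested (14663). No column of other samples was present (0 columns not used). Arrays have no read depth, and the number of samples limits the precision.

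The authors' deposited log2 values were fitted with limma 3.58.1 (lmFit and eBayes) in R 4.3.3 (package data.table, version 1.17.8), with a mean for each of 19 groups of all 117 samples and Benjamini-Hochberg adjustment at 0.05. Plots used matplotlib 3.10.9. The fit was tested on simulated data. Named genes were Prom1, list members, the 15 largest rises and 15 largest falls without overlap, the 10 largest departures from other organs in each direction among genes also called in liver and the 10 largest SDs among tumours, passing over predicted and clone-named genes. Members, lists and promoter motifs were chosen with earlier results of these data known. Alternatives covered the probe set, filter, normalization, variance model, array weights, samples, array quality, blocks, sample codes, reference and each sample left out. Leaving out tumours 1 and 8, or the 8 tumours with high Xist, was chosen after the data were seen.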

Additional observations from a re-analysis of the deposited data

Results flagged for a closer look

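Among 53 genes named by the rule, 106 gene and group pairs of the sorted samples were checked for a sample far from the rest of its group. In 11 of them the gap to the nearest sample exceeded Dixon's 95% critical value, and chance alone marks about 5 in 100 groups. In the Prom1-positive samples these were Sult2a2 at 2.61 and Il13ra2 at 10.05, Jun at 9.51 and Ces3b at 11.06, all in sample 2, Lratd2 at 3.70 and Sftpc at 3.18 in sample 3, and Btc at 2.51 in sample 4. In the Prom1-negative samples they were Hsd3b5 at 7.11 and Serpina4-ps1 at 6.39 in sample 2, Cyb561 at 2.50 in sample 3 and Btc at 2.16 in sample 5. The tumours, numbering 13, were not checked in this way.

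By limma's test, the tumour difference in liver departed from the mean of the 4 other organs in 45 of the 53 named genes. Some of these genes were named for having the largest departures in this same test, so their outcome was fixed in advance. The count of 45 is therefore a description and not a test. Among all genes tested, 34.1% departed. Values are log2. Upward departures were 3.96 for Lcn2, 6.59 for Sult2a2, 4.57 for Rdh9, 3.03 for Prss8, 1.18 for Egln3, 1.61 for Ppl, 2.27 for Elovl7, 2.43 for Tnfrsf12a, 3.10 for Lratd2, 1.48 for Btc, 4.29 for Ifi27l2b and 2.30 for Cyb561. Further ones were 7.66 for Spink1, 7.01 for Sult1e1, 6.77 for Prom1, 5.59 for Akr1c18, 5.53 for Tspan8, 5.02 for Ccl2, 4.94 for Sult1d1, 4.75 for Itih5, 4.61 for Xist, 3.05 for Igf2, 1.78 for Sftpc and 2.69 for Afp. Downward departures were -6.90 for Mup3, -7.14 for Hsd3b5, -4.92 for Dnase1l3, -4.49 for Clec4g, -4.37 for Wnt2, -0.89 for Fos, -4.44 for Ehd3, -2.48 for Sult5a1, -3.08 for Col13a1, -1.86 for Il13ra2, -3.24 for Ptprb, -1.87 for Id3 and -2.66 for Aqp1. The others were -6.94 for Serpina4-ps1, -5.78 for Elovl3, -5.77 for Ces3b, -5.43 for Slco1a1, -5.37 for Sult2a8, -4.94 for Moxd1, -4.58 for Oit3 and -4.29 for Car3. Fos had differences of -3.73 in prostate, -3.77 in lung, -2.84 in stomach and -3.86 in uterus.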

How the results depend on the processing

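Of 43 alternatives, 24 left out 1 liver sample each. Called genes numbered 6921 against the mean of both groups, 5922 against the positive, 5814 against the negative samples and 5000 against the other organs. Over the samples left out, these counts ran from 6425 to 6950, 4633 to 6000, 4908 to 5917 and 4527 to 5016. With the 3 tumours whose sample codes were not below the lowest code of a sorted sample of any organ, the counts were 3255, 3708, 3084 and 2371, with 10 fewer tumours in the fit. With each array's upper quartile in the fit, 3855 genes were called against the positive samples, 51.9% of it higher, against 69.5% as deposited and 57.5% with quantile normalization repeated. Centring arrays on their medians moved the median of all genes to 0.115, and the positive samples as reference moved it to 0.168. Without tumours 1 and 8 the counts were 6517, 5739, 5460 and 4704, and without the 8 tumours with high Xist 4849, 4638, 4195 and 3486. With the title number as a replicate block they were 6802, 5927, 5814 and 4822, and blocks of neighbouring codes gave 6337, 5729, 5809 and 4175. The deviations from the group means correlated between same-numbered sorted samples by 0.59, -0.04, 0.22 and 0.04, so the numbers were not taken as pairs.

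Of 154 genes named, 98 kept their call, or its absence, under every alternative run, with the direction of called genes unchanged, and 56 did not. Direction was not followed for genes without a call in both fits. It changed among these for some, such as Nkd1 (-1.03 to 0.45) and Krt19 (-0.58 to 1.11). Calls were lost for 35 genes with the 3 tumours of high codes, 20 without the 8 tumours with high Xist, 13 against the positive and 15 against the negative samples alone, 12 in a fit of the 24 liver samples, 11 with the upper quartile in the fit, 7 without arrays with an upper quartile under 6, and 6 with array weights. Among genes called in the main fit or in the alternative, the direction turned against the positive samples alone for Ccl5 (2.53), Cd3g (0.37) and Nkg7 (1.26). Against the negative samples alone it turned for Hmgcs1 (0.16) and Mki67 (-0.02). It turned with the 3 tumours of high codes for Igf2 (-0.27), Krt23 (-0.23), Nr1i3 (0.35) and Upk3a (-0.32), and without the tumours with high Xist for Xist (-0.19). The cause was not tested. The arrays' medians limit how far a fall can be followed, since Hsd3b5, Wnt2 and Elovl3 lay below the mean array median in the tumours.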

Other observations

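Prom1 in liver tumours can be set beside the other tumours of the series. It read 2.79 to 10.23 with a median of 8.62 in liver tumours, 4.16 to 8.80 in lung, 7.44 to 10.42 in prostate, 3.39 to 11.29 in stomach and 2.45 to 10.66 in uterus tumours. Normal cells of stomach read 9.12 to 12.06 and those of uterus 9.49 to 11.99, so liver was the organ whose sorted cells had the lowest Prom1 of the 5.

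Lcn2 was high in tumours of several organs, at 11.48 to 12.85 in lung and 9.91 to 11.35 in prostate, beside 10.48 to 13.36 in liver. Sult2a2 was not, with at most 2.72 in prostate, lung and stomach tumours and up to 8.0 in the uterus tumours, whose median was 2.51. Akr1c18 reached 11.18 in skin tumours, with a median of 9.18, and stayed at 3.85 or less in lung tumours.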
